A study of Mus musculus with 12 samples.

Results

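The transcriptome of normal, fully grown mouse oocytes was described from the 3 arrays of the control genotype, out of 12 arrays of 4 genotypes. The arrays were chosen by their label alone, and all 21657 genes that could be named by a probe set were ranked by their mean log2 level over these 3 arrays. Control females were Ring1+/+Rnf2F/F, which means that Ring1 was intact and that Rnf2 was flanked by loxP sites with no Cre present, on a mixed 129/Sv and C57BL/6J background. The other genotypes of the series, Ring1-/-Rnf2F/F, Ring1+/+Rnf2F/FZp3-cre and Ring1-/-Rnf2F/FZp3-cre, entered no comparison here. The females were 5 to 10 weeks old and had been superovulated with PMSG, and oocytes with an intact germinal vesicle (GV) were taken 46 h later into medium with milrinone, which blocks resumption of meiosis. Each of the 3 pools held 50 oocytes gathered from several females, so the spread between pools is that of pooled material and not of single animals. RNA was amplified by PCR of a whole-transcriptome library before hybridisation.

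A GV oocyte has stopped in the prophase of meiosis I. During growth it builds a store of mRNA and protein, and by the end of growth it has largely stopped transcription, so meiotic maturation, fertilisation and the start of embryonic life run on stored products. Much of the stored mRNA carries a short poly(A) tail and is translated only later. The oocyte grows in contact with granulosa cells, to which it is joined by gap junctions, and it secretes growth factors that act on them.

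An array reports a signal even for a silent gene, so a floor was set on each array at the 95th percentile of 1034 olfactory receptor genes, which are taken to be mostly silent in oocytes. The floors of the 3 arrays were 3.84, 3.88 and 3.87 log2, and the olfactory receptor genes themselves had medians of 2.58, 2.63 and 2.60 log2. Of the 20623 other genes, 11807 (57.3%) lay above the floor and 7567 (36.7%) lay below it by limma with Benjamini-Hochberg adjustment at an adjusted p under 0.05, and 1249 could not be told apart from it. The 2163 genes among them within the top 10% of ranks, with means from 8.64 to 12.07 log2, are called abundant here. The other 9644 genes above the floor, with means from 3.99 to 8.64 log2, are called moderate. A level below the floor is one that a silent gene could also give, and does not show that a transcript was absent. Of the 1034 olfactory receptor genes, 43 (4.2%) were themselves called above the floor, and 2 of these lay within the top 10% of ranks. Their highest mean was 9.28 log2, so a call above the floor is not proof of expression. The test takes the floor as fixed, and its p reflects only the spread between pools. The number above the floor depended on the percentile chosen, and a floor at the 99th percentile left 6202 genes above.

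**Figure D1:**
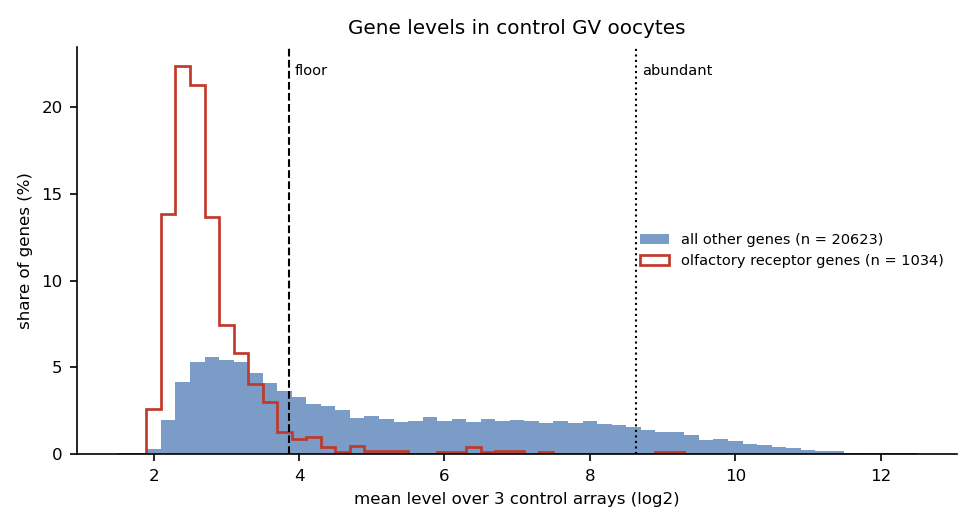
Distribution of mean log2 level over the 3 control arrays (x axis) as a share of genes (y axis) for 1034 olfactory receptor genes (red outline) and 20623 other genes (blue). The dashed line is the mean floor at 3.86 log2 and the dotted line the lower bound of the abundant class at 8.64 log2; most olfactory receptor genes lie left of the floor, while the other genes reach 12.07 log2.

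The pools gave close to the same order of genes. Pearson's r across genes, which are not independent replicates, was between 0.9964 and 0.9967 for the 3 pairs of arrays, and 2124 to 2131 of the 2165 top-ranked genes of each array were also in the top 10% of the mean. The median SD over the pools was 0.05 log2 in the abundant class and 0.09 log2 in the moderate class. Comparisons between genes carry a larger error, because probe sets differ in how strongly they bind. In the 1081 genes with several probe sets, the highest and the lowest probe set differed by a median of 1.37 log2 and by more than 1 log2 in 60% of genes. In the 302 of these genes that were abundant the median difference was 2.16 log2, and in the 78 abundant genes whose probe sets all lay among neighbours of the gene's own chromosome it was 3.81 log2. Neighbours in the ranking, and genes whose levels differ by less than these medians, are therefore not distinguished, and the ranking is a description of signals.

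The labelled cell type was checked against its markers. Gdf9 and Bmp15 encode growth factors that the oocyte secretes towards granulosa cells. Gdf9 read 11.95, 12.01 and 11.97 log2 in the 3 pools, and Bmp15 read 11.45, 11.49 and 11.47 log2. Zp3, which encodes a glycoprotein of the zona pellucida, the coat of the egg, read 11.34, 11.46 and 11.41 log2. These 3 genes held ranks 4, 30 and 43 of 21657, at limma adjusted p = 3.22e-10 against the floor. Of 14 oocyte markers, 13 were abundant and Figla, a bHLH transcription factor of the oocyte, was moderate at 8.01 ± 0.13 log2 (SD, n = 3).

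Markers of other ovarian cells were mixed. Among 15 granulosa and cumulus markers, none was abundant, 8 were moderate, Foxl2 was not told apart from the floor and 6 were below it. Over all genes, 57.3% were above the floor, 36.7% below it and 10.5% abundant. The 15 markers were thus near genes in general in the shares above and below. The 6 below the floor were Amh, Amhr2, Fshr, Kitl, Ptx3 and Has2, so defining granulosa genes such as Fshr (3.19 ± 0.10 log2, SD, n = 3), the FSH receptor, were not detectable over the floor. The moderate markers differed between pools. Cyp11a1, which starts steroid synthesis by cutting the cholesterol side chain, read 7.34 log2 in pool 1, 6.17 log2 in pool 2 and 5.28 log2 in pool 3. Star, which carries cholesterol into mitochondria, read 6.10, 4.53 and 4.02 log2. Inha, the inhibin alpha subunit, read 7.01, 6.82 and 5.66 log2. All 3 genes were highest in pool 1 and lowest in pool 3. Against a floor at the 99th percentile of olfactory receptors, Cyp11a1 and Inha were no longer told apart from it and Star was below it. The summed level of the 15 markers was 9.92, 9.52 and 9.13 log2 in the 3 pools, while that of the 14 oocyte markers stayed between 14.78 and 14.82 log2. Cyp19a1 (aromatase), the highest of the granulosa markers, was flat across the pools at 7.90, 7.83 and 7.77 log2. The part that remaining follicle cells have in these levels was not tested.

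Of 9 theca, stroma and endothelial markers, 4 were moderate, 1 was not told apart and 4 were below the floor, with a summed level between 8.64 and 8.67 log2. The moderate ones were Pecam1 at 8.07 ± 0.02 log2 (SD, n = 3) and the collagens Col1a1, Col1a2 and Col3a1 at 4.20 to 5.34 log2, while the endothelial cadherin Cdh5 and the theca enzyme Cyp17a1 were below the floor. All 4 blood markers measured were below the floor or not told apart from it. Of 4 sperm markers, the protamine Prm2 was moderate at 6.59 ± 0.15 log2 (SD, n = 3) and the other 3 were below the floor. These marker sets are small, and over all genes 57.3% were above the floor and 36.7% below it.

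**Figure D2:**
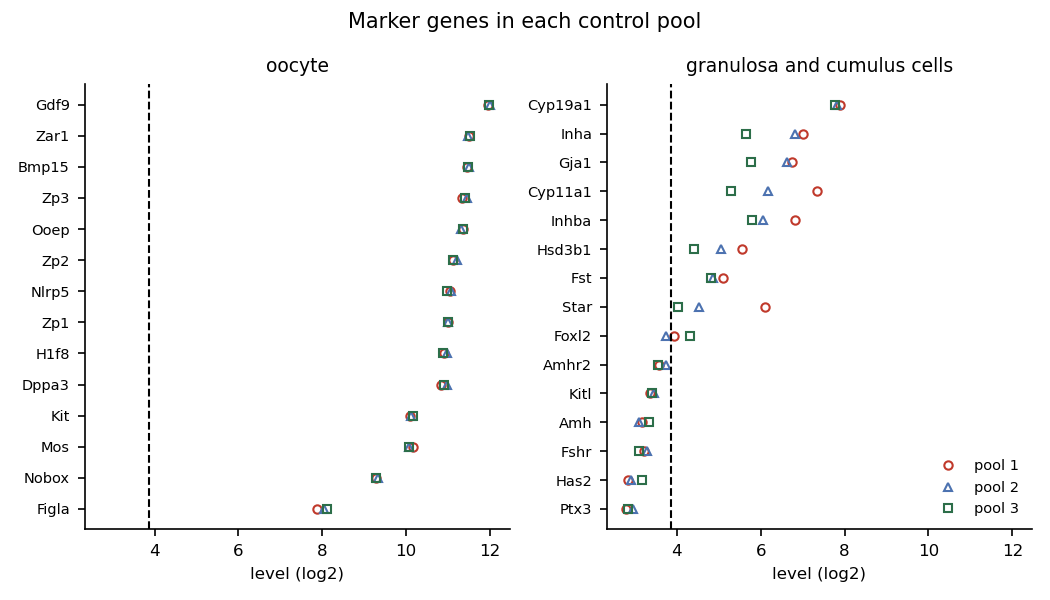
Log2 level (x axis) of 14 oocyte markers (left) and 15 granulosa and cumulus markers (right) in control pool 1 (circles), pool 2 (triangles) and pool 3 (squares), with the mean floor at 3.86 log2 as a dashed line. The oocyte markers nearly coincide between pools, whereas Cyp11a1, Star, Inha and Hsd3b1 spread, with pool 1 highest and pool 3 lowest.

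The 30 highest genes were of mixed function. The highest was Rps29, a protein of the small ribosomal subunit, at 12.06, 12.13 and 12.02 log2. Dppa5a, an RNA-binding protein of germ cells and pluripotent cells, followed at 12.00, 12.00 and 12.15 log2. Eif4e1b, an oocyte form of the cap-binding protein, read 12.05, 11.96 and 11.98 log2. The means of the first 4 genes, Gdf9 included, lay between 11.98 and 12.07 log2 and the pools of neighbours in this order overlapped, so their order is not resolved. Among the 30 were also Btg4, Nlrp14, Tcl1, Oog3, Zar1, Uchl1, Bmp15, Elobl and E330021D16Rik, which are on the lists of oocyte genes used here, all between 11.47 and 11.73 log2. Plat, tissue plasminogen activator, whose mRNA is a classic stored message of the mouse oocyte, read 11.59, 11.53 and 11.55 log2. General genes among the 30 were the elongation factor Eef1a1, the chaperone Hsp90aa1, the proteasome subunit Psmb6, the RNA polymerase II subunit Polr2l, the gamma-secretase subunit Psenen, the oligosaccharyltransferase subunit Dad1, Tpt1 (translationally controlled tumour protein), the mitochondrial genes Atp5g2, Atp5mpl, Cox6c and Parl, the lactate dehydrogenase subunit Ldhb, and the ribosomal genes Rpl37 and Rpl36al, together with the pseudogene Gm7079 and the non-coding gene Gm1965. For Rpl37, Ldhb, Atp5g2, Parl, Tpt1 and Rpl36al, the probe set used sat among probe sets of another chromosome in the array's numbering, and signal of near-identical copies cannot be separated. Leaving out all such probe sets kept 25 of the 30 genes among the highest. The same limit holds for 146 of the 2163 abundant genes. Among those named below it covers Rpl37a, Eif4a3, Dnajb6, Ube2d3, Mrps33, Prdx2, Ccnb1, Tmsb10 and Dppa3.

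Genes of the egg coat and of the cortex were at the top of the range. All 3 measured zona pellucida genes were abundant. Zp2 read 11.13, 11.22 and 11.13 log2 and Zp1 read 11.01 log2 in each pool. The subcortical maternal complex is a protein assembly under the egg membrane that the embryo needs for its first cleavages. All 8 of its listed genes were abundant, with a median of 11.01 log2 against 4.56 log2 over all genes. Its highest member was Padi6, a peptidylarginine deiminase of the cytoplasmic lattices, at 11.41, 11.45 and 11.45 log2. Ooep read 11.35, 11.30 and 11.36 log2 and Nlrp5 (Mater) read 11.05, 11.06 and 10.98 log2. The lowest, Nlrp4f, read 8.94, 9.18 and 8.86 log2 on the higher of its 2 probe sets, while the other had a mean of 2.57 log2, below the floor.

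Of 11 secreted factors of the oocyte, 8 (72.7%) were abundant, against 10.5% of all genes. Besides Gdf9 and Bmp15 these were the oocyte-secreted proteins Oosp1, Oosp2 and Oosp3, the egg protease Astl (ovastacin), which cleaves ZP2 after fertilisation, and the ligands Bmp6 and Tgfb2. Oosp2 read 11.39, 11.51 and 11.40 log2 and Bmp6 read 9.37, 9.38 and 9.47 log2. Fgf8 and Fgf10 were moderate at 6.92 and 6.38 log2, and Lefty2 was below the floor at 2.54 log2. Gene families known from oocytes had 33 of 39 members (84.6%) in the abundant class, with a median of 10.69 log2. They included E330021D16Rik, Elobl, Tcl1 and Btg4, an adaptor of the CCR4-NOT deadenylase that is needed for decay of maternal mRNA. Btg4 read 11.67, 11.71 and 11.59 log2. The 1 member below the floor was Rfpl4b at 2.32 ± 0.11 log2 (SD, n = 3). Many of these families sit in clusters of near-identical copies, and the split of signal among copies is uncertain. Both lists hold genes known from oocytes and were written with earlier results of these data known. Their high places in the ranking are therefore a description only.

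Of 12 transcription factors of oocyte growth, 5 were abundant, 4 moderate and 3 below the floor. Obox5 was highest at 10.81 log2. Foxo3, which holds primordial follicles dormant, followed at 10.17 log2, and Nobox, a homeobox regulator of oocyte genes, at 9.30 log2. Sohlh1, which acts in early follicle formation, was narrowly below the floor at 3.69 ± 0.13 log2 (SD, n = 3). Its difference from the floor was -0.18 log2 (limma adjusted p = 0.0456). Against a floor at the 90th percentile of olfactory receptors, 10 of the 12 were above. Taf7l and Obox6 lay further below the main floor, at differences of -1.16 and -1.64 log2. The regulators therefore spanned 2.22 to 10.81 log2, whereas the 3 zona genes spanned 11.01 to 11.41 log2.

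Promoter sequences were set beside the levels, a step chosen after the levels were seen, because several abundant oocyte genes and abundant housekeeping genes differed in their CpG content. RefSeq starts on build GRCm38.p6 were used, with the 250 bases before each start. The first 3 sequences are promoters of abundant oocyte genes, read 5′ to 3′ on the gene's strand, with each E-box (CANNTG on either strand, which is its own reverse complement) in capitals. The E-box is the motif that bHLH factors such as FIGLA bind. Zp3 lies at chr5:135979855-135980104 on the plus strand, Bmp15 at chrX:6320725-6320974 on the minus strand and Btg4 at chr9:51115751-51116000 on the plus strand.
Zp3: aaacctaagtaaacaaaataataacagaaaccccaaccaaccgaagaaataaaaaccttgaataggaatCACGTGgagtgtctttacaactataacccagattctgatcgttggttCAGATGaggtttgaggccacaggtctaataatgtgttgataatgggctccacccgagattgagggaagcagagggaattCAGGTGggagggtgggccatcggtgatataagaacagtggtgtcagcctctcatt
Bmp15: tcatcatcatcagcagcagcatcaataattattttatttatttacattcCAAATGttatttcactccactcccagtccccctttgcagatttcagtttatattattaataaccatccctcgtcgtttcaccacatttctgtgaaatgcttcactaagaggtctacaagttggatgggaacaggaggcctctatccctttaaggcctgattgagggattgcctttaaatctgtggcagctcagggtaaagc
Btg4: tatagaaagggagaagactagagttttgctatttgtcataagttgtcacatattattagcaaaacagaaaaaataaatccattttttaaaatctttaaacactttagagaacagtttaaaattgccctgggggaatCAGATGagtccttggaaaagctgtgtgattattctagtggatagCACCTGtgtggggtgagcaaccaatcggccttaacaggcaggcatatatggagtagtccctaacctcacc
The windows held 3, 1 and 2 E-boxes and 5, 2 and 1 CpG dinucleotides. The next sequences show, with each CpG in capitals, an abundant housekeeping gene and a liver gene at the bottom of the ranking. Psma7, a proteasome subunit at 11.33, 11.27 and 11.30 log2, lies at chr2:180042465-180042714 on the minus strand, and Cyp3a11, a liver cytochrome P450 at 2.16, 2.26 and 2.03 log2, lies at chr5:145879855-145880104 on the minus strand.
Psma7: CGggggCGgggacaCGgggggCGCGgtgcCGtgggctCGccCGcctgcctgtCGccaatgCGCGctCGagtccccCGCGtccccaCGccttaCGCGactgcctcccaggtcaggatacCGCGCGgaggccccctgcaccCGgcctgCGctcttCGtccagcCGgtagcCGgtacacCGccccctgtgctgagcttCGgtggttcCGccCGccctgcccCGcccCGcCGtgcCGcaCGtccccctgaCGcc
Cyp3a11: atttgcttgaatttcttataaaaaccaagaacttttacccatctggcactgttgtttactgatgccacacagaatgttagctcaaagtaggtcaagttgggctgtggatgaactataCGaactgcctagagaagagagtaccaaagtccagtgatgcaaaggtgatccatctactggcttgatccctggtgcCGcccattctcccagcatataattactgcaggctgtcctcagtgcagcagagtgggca
Psma7 held 35 CpGs and Cyp3a11 held 2. Psma7 had the most CpGs of the 40 proteasome genes with a listed start, so it is an extreme example. Psmb6, the proteasome gene with the highest level, held 10.

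Lists differed in the same measure, and oocyte lists were not alike in it. The ratio of observed to expected CpG had a median of 0.18 over the 33 of 39 oocyte family genes with a listed start and 0.25 over all 8 subcortical complex genes, against 0.70 over 40 of 48 proteasome genes, 0.77 over 66 of 75 mitochondrial ribosomal genes and 0.81 over 12 of 13 genes of Polycomb repressive complex 2. Other lists of genes that act in the oocyte lay higher, with medians of 0.82 over 45 of 56 genes of mRNA storage and decay, 0.83 over 25 of 29 small RNA and piRNA genes, 0.75 over 26 of 30 genes of meiotic arrest and resumption and 0.53 over 10 of 12 oocyte transcription factors. A ratio above 0.6 was found in 7 oocyte family genes, in none of the subcortical complex genes and in 27 proteasome genes. The 7 were Rbbp7, Rnf114, Dazl, Gpr3, Ddx25, Ddx4 and Pld6, named here after their values were seen, and 4 of them were in the moderate class. Liver genes, at a median level of 2.89 log2, had a median ratio of 0.20 over 24 of 30 genes, close to that of the oocyte families at 10.69 log2. Over all 32851 promoters of the table the median was 0.37, and 34.0% exceeded 0.6. An E-box was present in 30 of 36 oocyte family promoters (83.3%), in 11 of 12 subcortical complex promoters (91.7%), in 18 of 25 liver promoters, in 84.8% of muscle and heart promoters, in 79.2% of vomeronasal and taste receptor promoters, in 23 of 43 proteasome promoters (53.5%) and in 66.2% of all promoters of the table. The same comparison over the abundant, moderate and lower classes as a whole is void, since a start was listed for 71.7% of the measured genes, under the 80% required.

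**Figure D3:**
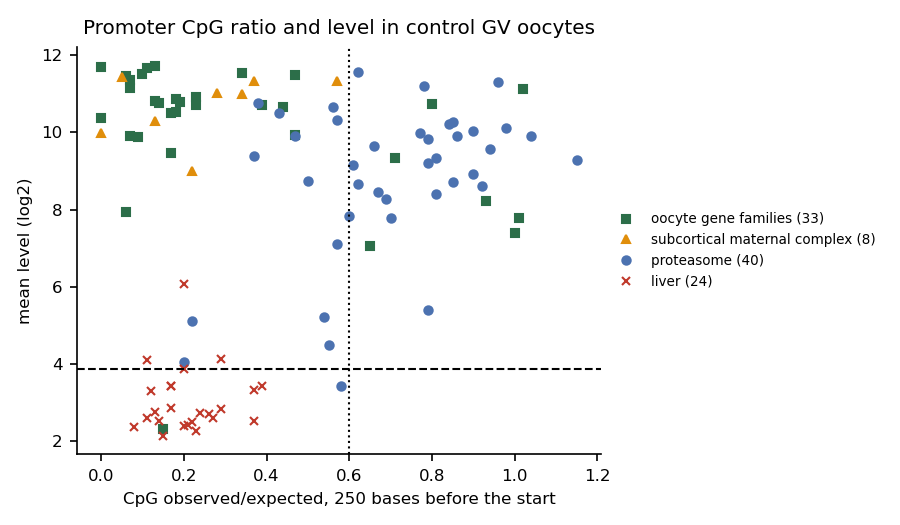
Ratio of observed to expected CpG in the 250 bases before the start (x axis) against mean log2 level (y axis) for genes of 4 lists; the dotted line marks a ratio of 0.6 and the dashed line the floor. Oocyte family and subcortical complex genes gather at low ratios and high levels, proteasome genes at higher ratios and high levels, and liver genes at low ratios near or below the floor.

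Protein synthesis and protein quality control genes were mostly above the floor. Of 73 genes for cytosolic ribosomal proteins, 51 were abundant, 19 moderate and 3 below the floor, with a median of 9.63 log2. The highest were Rps29, Rpl37, Rpl36al and Rpl37a, at 11.45 log2 or more. The lowest were Rpl3l, a form specific to striated muscle, at 2.65 log2 and Rpl23a at 2.39 log2. Translation factors had 32 of 64 members in the abundant class, led by Eif4e1b, Eef1a1, Eif4a3 and Eif1ax, and a median of 8.61 log2. The lowest were Eif2ak2, the interferon-induced kinase PKR, at 2.88 log2 and Eif2s3y, which is Y-linked, at 2.08 log2.

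The proteasome, which degrades ubiquitinated proteins, had 32 of 48 genes in the abundant class and a median of 9.31 log2. Psmb6, a catalytic subunit, read 11.56, 11.57 and 11.57 log2. Psma8, the subunit of the spermatoproteasome in testis, was below the floor at 2.58, 2.44 and 2.56 log2. Cytosolic chaperones had 19 of 27 members abundant, among them Hsp90aa1, Dnajb6, Hspa8 and the chaperonin subunit Cct5 at 11.06 to 11.67 log2, while the co-chaperone Bag3 was below the floor at 3.12 log2. Genes of ubiquitin conjugation were lower, with 26 of 70 abundant and a median of 8.14 log2. Their highest members were Ube2d3, Cks1b, Skp1 and Ube2k at 10.59 to 11.42 log2, and Ube2dnl2 and Ube2nl were lowest at 2.31 and 1.99 log2.

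Oocytes take up pyruvate, which granulosa cells supply, and use little glucose. Oxidative phosphorylation had 56 of 92 genes abundant and 32 moderate, with a median of 9.10 log2, and Atp5g2, Cox6c, Atp5mpl and Uqcrh were at 11.29 to 11.75 log2. Its lowest member, the testis form Cox7b2, read 2.29 log2. Mitochondrial ribosomal proteins had 23 of 75 genes abundant and a median of 7.84 log2, with Mrps33 highest at 11.26 log2. The pyruvate and citrate cycle list had 9 of 27 abundant and a median of 8.26 log2, led by citrate synthase Cs at 10.30, 10.26 and 10.15 log2.

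Glycolysis genes ranged from 3.00 to 11.78 log2. Of 21 genes, 7 were abundant, 6 moderate, 2 not told apart from the floor and 6 below it. The share above the floor, 61.9%, was near the 57.3% of all genes, while 33.3% were abundant against 10.5%. Ldhb, the heart-type lactate dehydrogenase subunit, which favours lactate oxidation, read 11.80, 11.79 and 11.76 log2. Pkm (9.79 log2) and Aldoa (9.52 log2) were also abundant. The hexokinase Hk2 read 3.79, 3.79 and 4.01 log2 and was among the 6 genes nearest to the floor, and Hk1, named after its value was seen, was below the floor at 3.18 ± 0.14 log2 (SD, n = 3). The neuronal glucose transporter Slc2a3 and Aldoc were lowest, at 3.00 and 3.07 log2. Cholesterol synthesis genes, which mouse oocytes are known to leave largely to cumulus cells, had 5 of 20 members abundant, 14 moderate and 1 below the floor. Fdft1 and Hmgcs1 were highest at 10.97 and 10.60 log2, and Pmvk lowest at 3.55 log2. Redox genes had 9 of 28 abundant, with the peroxiredoxin Prdx2 at 11.06 log2 and Sod1 at 10.46 log2, and Gstm1 lowest at 2.84 log2. Transporters had 5 of 25 abundant and 7 below the floor. Slc6a9, the glycine transporter that sets oocyte volume, was highest at 10.80 log2.

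Genes that store, mask or destroy maternal mRNA were above the floor in 54 of 56 cases, with 30 abundant and a median of 8.77 log2. Eif4e1b, Btg4, Zar1, which binds stored mRNA, and the RNA-binding protein Igf2bp2 (10.47 log2) were highest. Zfp36l1, a relative of the maternal decay factor ZFP36L2, was below the floor at 3.22, 3.40 and 3.31 log2, and Tut4, a terminal uridylyltransferase, was not told apart from it at 4.00 log2. All 42 maternal effect genes measured were above the floor, 26 of them abundant, from 5.91 log2 for the chromatin remodeller Chd1 to 11.56 log2 for Nlrp14. This list was drawn from genes known to be needed in the egg, so its place in the ranking is a description of it only. Small RNA and piRNA genes had 7 of 29 abundant, led by Gtsf1 and Tdrd1 at 10.42 and 9.98 log2, with Dicer1 at 9.96 log2 and Piwil4 lowest at 2.93 log2.

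**Figure D4:**
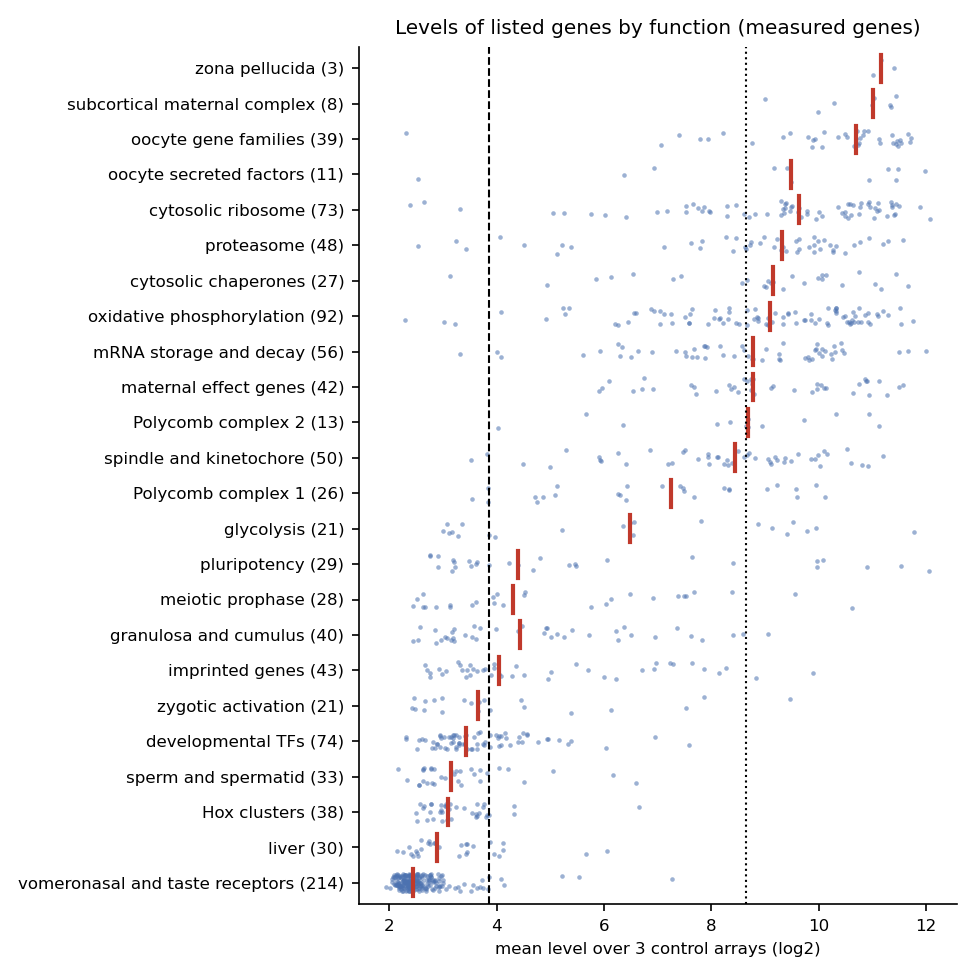
Mean log2 level over the 3 control arrays (x axis) of each measured gene (blue points) in 24 lists (y axis, number of genes in brackets), with the list median as a red bar. The dashed line is the mean floor and the dotted line the lower bound of the abundant class; medians run from 11.16 log2 for the zona genes to 2.44 log2 for vomeronasal and taste receptors.

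The cell cycle genes of the arrested oocyte were mostly above the floor. Genes of meiotic arrest and resumption were above the floor in 28 of 30 cases, 7 of them abundant. Against a floor at the 99th percentile of olfactory receptors, 20 of the 30 were above. Ccnb1, the cyclin B1 of maturation-promoting factor, read 11.15, 11.10 and 11.07 log2. Wee2, the oocyte kinase that holds CDK1 inactive, read 10.63, 10.74 and 10.66 log2. Plk1, a kinase of M-phase entry, read 10.53, 10.61 and 10.64 log2. Ccna1, the testis A-type cyclin, was below the floor at 2.87 log2, and Npr2, the granulosa receptor for the arrest signal CNP, was not told apart from it at 3.69 log2.

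All 13 genes of the later metaphase II arrest were above the floor, against 57.3% of all genes, and 6 were abundant. The lowest, Rps6ka2, was only 0.31 log2 above it (limma adjusted p = 0.0379). Against the 99th percentile floor, 11 of the 13 were above. The abundant ones included Mos, the kinase upstream of MAPK, at 10.16, 10.08 and 10.06 log2, and the checkpoint genes Bub1b and Mad2l1 at 10.84 and 10.24 log2. Spindle and kinetochore genes had 23 of 50 abundant, led by Aurkc, the meiotic Aurora kinase, at 11.20 log2. The cohesin gene Rec8, whose protein holds meiotic chromosomes together from fetal life on, was not told apart from the floor at 3.82 log2. Cyclins and their kinases had 5 of 29 abundant and 21 moderate, and the inhibitor Cdkn1a (p21) was below the floor at 3.55 log2.

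Genes of early meiotic prophase, when recombination takes place in the fetal ovary, lay near the level of genes in general. Of 28, 2 were abundant, 13 moderate, 4 not told apart and 9 below the floor, and the median was 4.31 log2. The share above the floor was 53.6%, against 57.3% of all genes, whose median was 4.56 log2. The synaptonemal complex gene Syce2 was highest at 10.61 log2. Spo11, which makes the DNA breaks that start recombination, read 2.44, 2.33 and 2.54 log2. Meiob, which binds single-stranded DNA in recombination, read 2.42, 2.48 and 2.67 log2. DNA repair and replication genes were above the floor in 37 of 38 and 32 of 32 cases. Chek1 was the highest repair gene at 9.73 log2, and Gins4 and Pcna were the highest replication genes at 10.34 and 10.16 log2. Actin and spindle positioning genes had 15 of 27 abundant. Tmsb10 was highest at 11.20 log2, on a probe set among those of another chromosome, and it had no other. The related thymosin Tmsb4x was below the floor at 2.99 log2.

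Fertilisation genes separated only in part by the gamete that uses them. Of 12 genes of sperm and egg fusion, 50.0% were above the floor, against 57.3% of all genes. Izumo1r (Juno), the egg receptor, read 9.48, 9.43 and 9.52 log2, and Cd9, the egg tetraspanin, read 9.24, 9.24 and 9.08 log2. Both were abundant. The 6 genes below the floor, Zan, Acr, Izumo1, Adam3, Spaca6 and Adam2, are sperm genes, whereas Spam1, a sperm hyaluronidase, was moderate at 6.96 ± 0.20 log2 (SD, n = 3). Cd55, Cd81 and Mfge8 were also moderate, at 8.61, 5.76 and 4.08 log2, the last only 0.21 log2 above the floor. Of 18 calcium and activation genes, 15 were above the floor. The calcium pump Atp2a2 was highest at 11.35 log2, and Plcz1, the phospholipase that sperm deliver, was lowest at 2.34 log2.

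Contacts with the follicle were represented on the oocyte side. Gja4, connexin 37, which forms the gap junctions on the oocyte surface, read 10.74, 10.71 and 10.68 log2. Gja1, connexin 43, which joins granulosa cells to each other, read 6.75, 6.63 and 5.76 log2, and the difference between these pools exceeded that of Gja4. Kit, the oocyte receptor, read 10.10, 10.12 and 10.17 log2, whereas its ligand Kitl, made by granulosa cells, was below the floor at 3.36, 3.45 and 3.41 log2. Of 31 genes of Kit and growth factor signalling, 29 were above the floor and 9 abundant. Of 28 apoptosis genes, 4 were abundant and 7 below the floor. As a list they lay near genes in general, with 64.3% above the floor against 57.3%, and 14.3% abundant against 10.5%. Bcl2l10, a survival gene of oocytes, read 11.44, 11.46 and 11.39 log2, and Bbc3 (PUMA), which mediates oocyte death after damage, read 3.10, 3.08 and 3.20 log2.

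Chromatin genes included the Polycomb proteins that the series was designed to remove. Polycomb repressive complex 2 methylates histone H3 and complex 1 ubiquitinates histone H2A through RING1 or RNF2. Rnf2 read 8.33, 8.44 and 8.23 log2 and was moderate at rank 2672. Ring1 read 3.85, 3.87 and 3.80 log2 and was not told apart from the floor (limma adjusted p = 0.649), although the control females carried intact Ring1. Whether this probe set detects the Ring1 transcript could not be settled from the files. Against a floor at the 90th percentile of olfactory receptors, Ring1 lay 0.40 log2 above. Over all 26 genes of complex 1, 6 were abundant, 17 moderate, 2 not told apart and 1 below the floor, and the median was 7.25 log2. Bmi1 was highest at 10.07, 10.26 and 9.99 log2, followed by Pcgf6, Kdm2b and Pcgf1 at 9.58 to 9.95 log2, and Pcgf2 (Mel18) was below the floor at 3.55 log2. Complex 2 had 8 of 13 genes abundant, with Rbbp7 at 11.12 log2, the methyltransferase Ezh2 at 10.91, 10.95 and 10.96 log2, Eed at 10.32 log2 and its inhibitor Ezhip at 9.72 log2. Only Epop of these 13 was not told apart from the floor, at 4.03 log2.

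DNA methylation genes had 7 of 19 members abundant. Zfp57, which protects imprints, read 11.29, 11.28 and 11.23 log2. Dnmt1, the maintenance methyltransferase, read 11.12, 11.13 and 11.10 log2. Dppa3 (Stella) at 10.90 log2 and Uhrf1 at 10.10 log2 followed, and Uhrf2 and Stpg4 were below the floor at 3.58 and 2.32 log2. All 25 histone variant and histone chaperone genes were above the floor, 11 of them abundant, with the oocyte linker histone H1f8 highest at 10.90, 10.97 and 10.89 log2. Histone methylation enzymes had 6 of 31 abundant, led by Setdb1 at 9.62 log2, and 3 below the floor, including Suv39h1 at 3.44 log2 and Kdm4c at 3.16 log2.

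Pluripotency genes lay near genes in general in the share above the floor, 55.2% against 57.3%, while 20.7% were abundant against 10.5%. Of 29 pluripotency genes, 6 were abundant, 10 moderate, 1 not told apart and 12 below the floor. Dppa5a, Tcl1, Dppa3 and Sall4 were highest at 10.07 to 12.05 log2, and Zfp42 (Rex1) and Myc were lowest, both at 2.76 log2. Pou5f1 and Nanog, named after their values were seen, were apart from each other, with 9.97, 9.98 and 9.95 log2 for Pou5f1 and 3.47, 3.37 and 3.61 log2 for Nanog. Of 21 genes that mark activation of the zygotic genome, 1 was abundant (Arg2, 9.46 log2), 6 were moderate and 12 were below the floor, which puts 33.3% above it. Tdpoz4 and Pramel6 were the lowest at 2.46 and 2.41 log2.

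Of the developmental regulators, none of 38 Hox genes was abundant, 3 were moderate (7.9% above the floor against 57.3% of all genes), 5 were not told apart and 30 were below it. Hoxa7 read 6.53, 6.70 and 6.72 log2 and stood apart from the next, Hoxa4 and Hoxd10, at 4.32 log2. Hoxc5 was lowest at 2.45, 2.59 and 2.44 log2. The count of Hox genes above the floor moved with the floor, to 12 under the 90th percentile of olfactory receptors, to 7 under the vomeronasal floor and to 1 under the 99th percentile or where at least 1 log2 above the floor was required. Of 74 other developmental transcription factors, 22 were moderate and 43 below the floor, with a median of 3.44 log2. Tfap2c, a regulator of germ cells and trophoblast, was highest at 7.64, 7.53 and 7.57 log2, and Gata4 followed at 6.94, 6.82 and 7.09 log2. Neurod1 and Cdx4 were lowest at 2.32 and 2.31 log2. Imprinted genes were above the floor in 51.2% of 43 cases, near the 57.3% of all genes. Of these 43, 2 were abundant, Mest (9.91, 9.91 and 9.85 log2) and H13 (8.83 log2), and 16 were below the floor, with Ascl2 and Zrsr1 lowest.

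Xist, the RNA that coats an inactive X chromosome, was below the floor at 3.42, 3.59 and 3.54 log2. X-linked genes were above the floor in 45.3% of 768 cases and abundant in 7.6%, against 59.7% and 11.2% of 18400 autosomal genes. The median level was 3.69 log2 for X-linked and 4.75 log2 for autosomal genes. Among single autosomes the share above the floor ran from 50.1% on chromosome 6 to 65.7% on chromosome 8. Of 7 listed genes of X dosage, Ddx3x was highest at 10.25 log2. Of 16 Y-linked genes, 2 read above the floor although oocytes have no Y chromosome.

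Genes of other tissues were described by list, beside the 36.7% of all genes that lay below the floor. The counts below the floor were 23 of 30 for liver, 24 of 33 for sperm and spermatids, 14 of 20 for keratinocytes, 13 of 20 for blood and immune cells, 19 of 30 for neurons, 15 of 24 for lens and photoreceptors, 15 of 30 for muscle and heart, and 10 of 18 for pancreas and gut. Of 19 theca, stroma and endothelial genes on the longer list, 9 were below, and 42.1% were above against 57.3% of all genes. Vomeronasal and taste receptors, a family like the olfactory receptors, had 205 of 214 genes below the floor and 4 above it. The members in the abundant class were Cpa1, a pancreatic carboxypeptidase, at 10.15, 10.13 and 10.18 log2, Vil1, the microvillus protein villin, at 8.64, 8.71 and 8.73 log2, and Tubb3, a tubulin used as a neuronal marker, at 9.83, 9.89 and 9.84 log2. With Cpa1 and Vil1, the pancreas and gut list was 11.1% abundant, near the 10.5% of all genes. The neuron list was 3.3% abundant. The pools differed by at most 0.09 log2 in each of these 3 genes. Moderate members at the head of their lists were Pde6b (7.72 log2) among photoreceptor genes, Actn3 (7.48 log2) among muscle genes, C1qb (6.41 log2) among immune genes and F2, prothrombin (6.06 log2), among liver genes. Vmn2r26 was the highest vomeronasal receptor at 7.26 log2.

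Variation among the pools was small and concentrated in few genes. Among 11810 genes above the floor or with at least 1 array 1 log2 above it, the median SD was 0.08 log2, 46 genes had an SD above 0.5 log2 and 8 above 1 log2. The largest was that of Cdc5l, a splicing factor, at 6.89, 10.00 and 10.75 log2. Its probe set sat among those of another chromosome, and the gene's 4 probe sets reached down to 2.76 log2, so the values are those of 1 probe set. With that probe set left out, Cdc5l was no longer told apart from the floor. Slc14a1, a urea transporter, read 7.05, 6.53 and 4.04 log2, and Gpat3, an enzyme of triglyceride synthesis, read 7.36, 6.59 and 4.84 log2. Sfrp4, a secreted Wnt antagonist made by granulosa and luteal cells, read 6.56, 4.82 and 3.98 log2. Star and Cyp11a1, given above, were also among the 10 genes with the largest SD, as were Defb48, Gm3160, Trav10n and D830030K20Rik. Slc14a1, Gpat3 and Sfrp4 shared the order of Star and Cyp11a1, with pool 1 highest and pool 3 lowest, whereas Cdc5l and Defb48 were lowest in pool 1.

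That order was also counted over the granulosa and cumulus list, whose cells Star, Cyp11a1 and Inha mark. Of 40 genes, 1 was abundant (Serpine2, 9.06 log2), 20 moderate, 2 not told apart and 17 below the floor. The share above the floor was 52.5%, near the 57.3% of all genes. Of the 21 above the floor, 17 (81.0%) were highest in pool 1 and lowest in pool 3, against 18.5% of all genes above the floor. An SD above 0.5 log2 was found in 8 of the 21 (38.1%), against 0.4% of all genes above the floor and none of the 38 oocyte family genes. The median difference of pool 1 over pool 3 was 0.29 log2 for the list and 0.01 log2 over all genes. These counts were made after the pattern had been seen in markers of the same cells, so they are a description and not independent support. Fewer cells of a type and less RNA per cell cannot be told apart in pooled RNA.

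**Figure D5:**
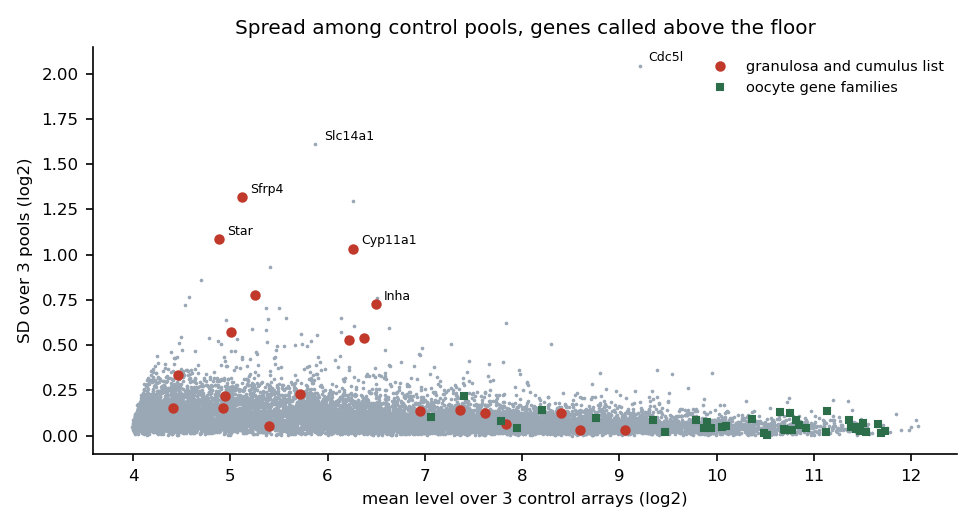
SD over the 3 control pools (y axis, log2) against mean log2 level (x axis) for genes above the floor (grey), with genes of the granulosa and cumulus list in red circles and oocyte family genes in green squares. Granulosa genes such as Sfrp4, Star, Cyp11a1 and Inha lie well above the median SD, the oocyte family genes all lie below 0.5 log2, and Cdc5l has the largest SD at 2.04 log2.

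The floor itself ran through genes of mixed function. The 3 genes just below it were Cd300lg, Ero1a and Cbs and the 3 just above it were Syne4, Hk2 and Slc38a6, all with means of 3.86 log2. Their SDs were between 0.01 and 0.21 log2, so none of the 6 could be placed on either side.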

How the data were processed

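Gene levels in GV oocytes were measured on an Affymetrix whole-transcript array. The deposited values are log2 levels, 1 for each of 34760 probe sets and array, made with R 2.10.0 and the affy package per the submitters' processing notes; for background correction, summarisation and genome build, nothing was given in the sources used here. An array gives no read depth, so precision is set by having 3 arrays. The labels call the samples biological replicates.

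From the authors' annotation, 23464 probe sets named 1 gene, 1148 several, 10117 none and 31 were not listed. Symbols were updated through RefSeq (20215 by gene number, 906 by symbol, 620 by older symbol, 178 by accession, 1545 kept), giving 21657 genes, each by its probe set with the highest control mean. limma 3.58.1 (R 4.3.3; lmFit, eBayes, two-sided, Benjamini-Hochberg over all genes) tested log2 level minus the floor of the same array. On simulated data with 21657 genes, a small set was planted at each distance above the floor. Of the planted genes, 76% at 0.25 log2, 98% at 0.5 and 100% at 1 log2 were called. Over all genes, 12 of 20515 calls had the wrong sign. SDs were shuffled over all genes, although the median SD was 0.05 log2 in the abundant class and 0.15 log2 in genes not told apart. The shares may therefore not hold near the floor. Gene lists (55 beside the olfactory receptors) were given by counts and medians; lists made by symbol pattern also hold assembly factors and tissue forms. The members and lists were chosen with earlier results of these data known. Named are the 30 highest genes, the 4 highest and 2 lowest of each list (lists of up to 12 may be named in full), the cell type markers, Ring1, Rnf2, the 10 genes of largest SD and the 3 on each side of the floor; other names were chosen after their values were seen. Promoters came from RefSeq (GRCm38.p6). Alternatives were other floors, probe sets, scalings, spread estimates and leaving out each replicate. A result by the naming rule is not reported here.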

Additional observations from a re-analysis of the deposited data

Results flagged for a closer look

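Signal appeared outside the gene ranking. Of 10117 probe sets that name no gene in the authors' annotation, 2754 (27.2%) read above the floor on the 3 control arrays by limma with Benjamini-Hochberg adjustment, and 651 exceeded the lower bound of the abundant class. The highest read 12.86 log2, above the highest named gene at 12.07 log2. Of 1148 probe sets that name several genes, 607 (52.9%) read above the floor. What these probe sets detect was not tested. Groups of 3 arrays are too small for a test of single outlying samples, and none was made.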

How the results depend on the processing

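Of 20623 genes, 11807 were above the floor, 7567 below and 1249 neither. A floor at the 99th percentile of olfactory receptor genes moved these counts to 6202, 13626 and 795, and a demand of at least 1 log2 above the floor left 3492 neither way. No other setting moved these 3 counts by 1.5 times. Leaving out each pool in turn gave 11614 to 11818 above, 7346 to 7478 below and 1459 to 1541 neither way, and shared 2141 to 2150 of the top 10% and 29 of the top 30 genes. Ranking each gene by its median or its lowest probe set shared 19 of the top 30 in each case. With a bound at the top 5% in place of the top 10%, 31 of 39 oocyte family genes and 41 of 73 ribosomal genes were abundant, and at the top 20%, 36 and 63. The choice to leave out probe sets among neighbours of another chromosome was made after seeing the data. Counts above the floor moved by 1.5 times in 27 of 55 lists under the 99th percentile, in 9 with the 1 log2 demand, in 7 under the 90th percentile, in 5 under the vomeronasal floor and in 1 (liver, 3 genes) without replicate 3.

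Of 56 single genes followed, these turned direction, or gained a call where they had none (Foxl2, Cd68, C1qa, Ring1, Defb48 and Gm3160). Against the 90th percentile floor, Amhr2 was 0.19, Cd68 0.42, C1qa 0.33, Prm1 0.14 and Ring1 0.40 log2 above. Against the vomeronasal floor, Cd68 was 0.31, C1qa 0.22 and Ring1 0.29 log2 above. Against the 99th percentile floor the log2 differences were -2.32 for Foxl2, -1.39 for Fst, -1.43 for Star, -1.31 for Hsd3b1, -1.45 for Col1a1, -0.97 for Col1a2, -2.11 for Col3a1, -0.44 for Slc14a1, -1.71 for Defb48, -1.19 for Sfrp4, -1.95 for Gm3160, -0.90 for Trav10n and -1.62 for D830030K20Rik. The median probe set gave -1.57 for Gm3160 and -1.07 for D830030K20Rik, and the lowest gave the same values and -1.06 for Cdc5l. Leaving out probe sets among neighbours of another chromosome gave -1.61 for Gm3160. Further calls were gained. Foxl2 (0.56 and 0.45), Defb48 (1.16 and 1.05) and Gm3160 (0.92 and 0.81) were above the 90th percentile and vomeronasal floors. So were Foxl2 without replicate 2 (0.26), Defb48 without replicate 1 (1.61) and Gm3160 without replicate 3 (1.08) above the main floor. Acta2 was below without replicate 1 (-0.48). Acta2 (-2.67), Cd68 (-2.45), C1qa (-2.54) and Ring1 (-2.47) were below the 99th percentile floor. Against the 99th percentile floor Inha (0.19), Inhba (-0.09), Gja1 (0.07), Cyp11a1 (-0.05) and Gpat3 (-0.05) were no longer called. Among losses under other settings, D830030K20Rik lost its call with the spread from all 12 arrays, without replicate 1 (0.37 log2) and without replicate 2 (0.90 log2). Other lost calls were Kitl (-0.03) and Dcn (-0.16) at the 90th percentile, Amhr2 (0.07), Kitl (-0.14) and Prm1 (0.02) at the vomeronasal floor, Col1a1, Col3a1 (0.33) and D830030K20Rik (0.83) with the 1 log2 demand, and Cdc5l with the median probe set (0.53) and without probe sets among neighbours of another chromosome (0.49). Among the 56, a floor common to all arrays, quantile normalization, median centring, eBayes with trend and the restriction to autosomes and X changed no call. No paired analysis was possible because only 1 genotype entered the test.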
